A study of Mus musculus with 14 samples.

Results

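The genes described here are 10 oncofetal and imprinted growth genes, that is, genes used by the embryo, or expressed from only a single parental copy. They were chosen by name (*Afp*, *H19*, *Igf2*, *Plagl1*, *Igf2bp1*, *Igf2bp2*, *Igf2bp3*, *Lin28b*, *Hmga1* and *Hmga2*), and all 10 were on the array, among 36161 gene names, with 24 probes. Each of 14 samples of unsorted tissue or cells was hybridized to a one-color Agilent mouse array, and the study names no experimental treatment of them. In its methylation design it describes the healthy small intestine and colon as mucosa. Healthy small intestine (3 arrays) came from C57BL/6J mice. Adenomas (3) and the tissue adjacent to them (2) came from *Apc*Min/+ mice in the C57BL/6J background, which carry a truncating germline mutation of *Apc*, the brake of Wnt signaling, and form intestinal adenomas. Colon (3) is labeled C57BL/6J, and CT26 (3) is a colon carcinoma cell line derived from BALB/c mice. The wild type mice were adult, and the ages of the *Apc*Min/+ mice are not given in the sources used here. *Apc*Min/+ mice found to be suffering were given buprenorphine, an analgesic, and whether any mouse used here received it is not stated. The sample list of the study places all adenoma and adjacent pieces in 1 mouse, so that the spread between them is that between pieces of tissue, and mouse and tissue state cannot be told apart. It places the small intestine samples in different mice, and 1 colon sample in an *Apc*Min/+ mouse against its label. The CT26 arrays are of 1 cell line, so that p-values against CT26 measure the spread between these arrays.

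AFP is the main plasma protein of the fetus, made by yolk sac and liver and reused by tumors as a marker. *H19* and *Igf2* are neighbors in an imprinted domain, where *H19*, a non-coding RNA, is read from the maternal copy and *Igf2*, a fetal growth factor, from the paternal copy. *Plagl1* encodes an imprinted zinc finger factor that activates other imprinted genes. IGF2BP1, IGF2BP2 and IGF2BP3 bind and stabilize mRNAs, *Igf2* among them, whereas LIN28B blocks the maturation of let-7 microRNAs, which repress *Hmga2*, *Lin28b* and the *Igf2bp* genes through sites matching their seed. HMGA1 and HMGA2 are architectural proteins that bend AT-rich DNA in growing cells.

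Sequences that tie these genes to small RNAs are shown first. The seed of let-7 (bases 2 to 8, in capitals) is shared by 11 mature names in RefSeq (GRCm38.p6), of which 3 are printed to show where the family varies. These lie in GRCm38.p6 at chr13:48538239-48538260 on the minus strand, chr9:106178846-106178867 on the plus strand and chrX:151913229-151913250 on the plus strand.
mmu-let-7a-5p: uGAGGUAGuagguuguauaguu
mmu-let-7g-5p: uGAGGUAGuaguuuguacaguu
mmu-miR-98-5p: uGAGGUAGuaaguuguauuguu
*H19* is itself the precursor of miR-675, whose hairpin lies at chr7:142577064-142577147 on the minus strand, and neither of its arms carries the let-7 seed.
mmu-miR-675-5p: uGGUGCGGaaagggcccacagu
mmu-miR-675-3p: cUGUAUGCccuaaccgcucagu
No mature microRNA was measured here.

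Levels are log2 signals after background subtraction, set relative to the 75th percentile of their own array, so that a level of 0 is that percentile. They are comparable between samples for one probe, not between genes. A probe was well above background on an array where the scanner software called it so. From 46.8% to 58.2% of the probes were, and colon replicate 3 had the lowest share. That array also stood apart in its markers. The summed level of 7 enterocyte markers of small intestine was 10.54 on it, against 6.73 and 7.52 on the other colon arrays and 10.31 to 11.69 in small intestine, while that of 8 colonocyte markers was 7.01, against 8.93 and 8.94. Counts that rest on colon, and the values of the 10 genes called there, are therefore given with and without it. All arrays of each tissue detected 7 of 7 epithelial markers above background, and those of CT26 detected 3, where *Epcam* and *Cdh1* were not above background.

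**Figure D1:**
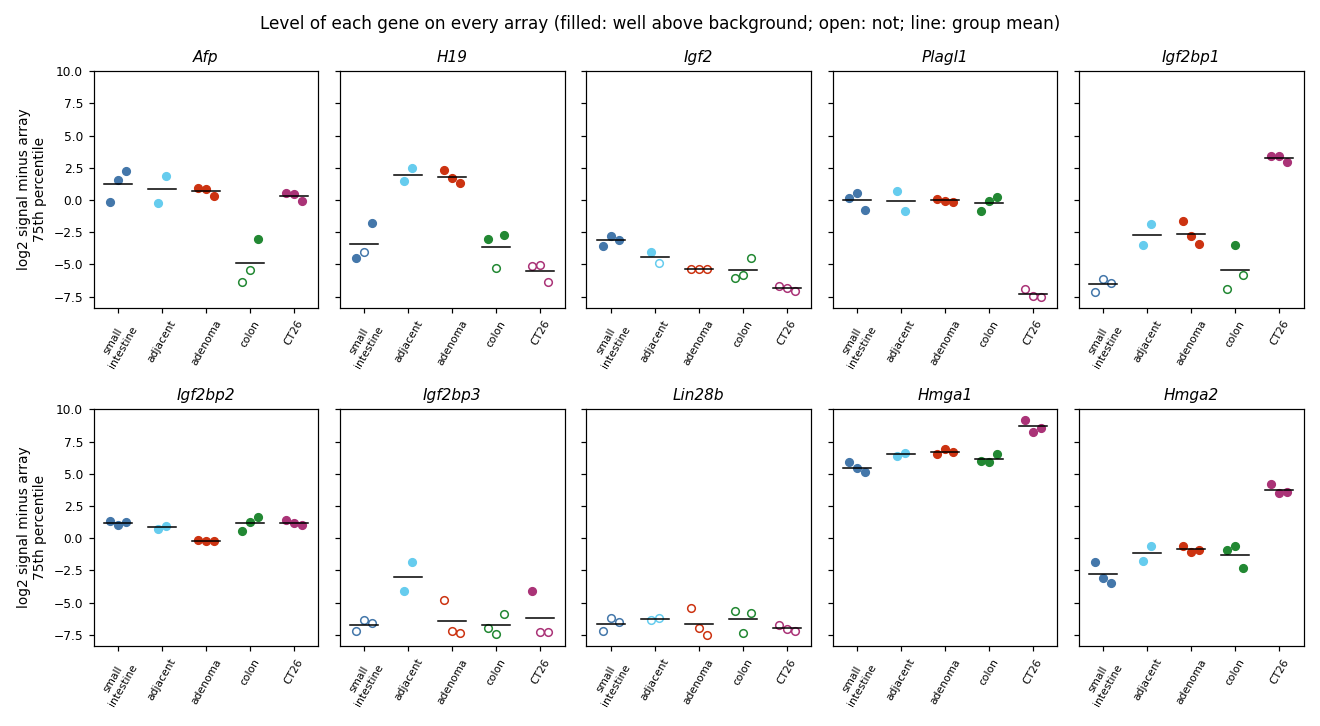
Level of each of the 10 genes on all 14 arrays, by group; each panel shows the brightest probe of one gene, the y axis is the log2 signal minus the 75th percentile of the array, filled points are well above background, open points are not, and lines are group means. *H19* is high in adjacent tissue and adenomas, *Igf2bp1* and *Hmga2* are high in CT26, *Plagl1* is open in CT26, and *Lin28b* is open on every array.

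*H19* was high in adjacent tissue and adenomas, pieces of the same mouse by the study's list, and low elsewhere. Its brightest probe (mm9 chr7:149761492-149761551, minus strand) had levels of -4.47, -4.04 and -1.80 in small intestine, 1.45 and 2.46 in adjacent tissue, 2.36, 1.67 and 1.33 in adenomas, -3.03, -5.25 and -2.70 in colon and -5.12, -5.08 and -6.38 in CT26. All adjacent and adenoma arrays lay above all others, by more than 3 log2 units, and CT26 arrays were not above background. The other probes of *H19* lay between chr7:149761693 and chr7:149762476, and 5 of them likewise had their highest means in adjacent tissue and adenomas.

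A single *H19* probe did not. The probe nearest the 5′ end of those on the array (mm9 chr7:149762417-149762476, minus strand) was dim in every group, at -4.26 ± 0.414 in small intestine and -6.26 ± 0.770 in adenomas (SD, n = 3), and was above background on 5 of 14 arrays. The pair of probes is printed so that they can be set against other transcript models; both are written as on the array, with no capitals.
H19 A_55_P1961127: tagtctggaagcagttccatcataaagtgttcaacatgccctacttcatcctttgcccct
H19 A_55_P1961125: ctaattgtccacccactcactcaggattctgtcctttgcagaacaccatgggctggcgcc

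Between adenomas and small intestine, which differ in mouse and genotype as well as in lesion, 6 of the 8 genes tested were called. Calls needed 1 probe of the gene with a log2 difference of 1.2 or more, up or down, and an adjusted p of 0.01 or less (limma, Benjamini-Hochberg), and 24.2% of all 22128 genes tested were called in this comparison. *H19* rose by 5.23 on the log2 scale (SE 0.681, adjusted p = 0.00112), or 37.4-fold, by its brightest probe, and by 3.55 to 5.35 in the 5 probes like it. The difference was 4.98 among the arrays of slide 1 and 5.71 among those of slide 2. The discordant probe fell by 2.0 on the log2 scale, at least 1.68-fold (adjusted p = 0.00651), so that *H19* counts in both directions. Its neighbor *Igf2* moved the other way. Its only probe (chr7:149839661-149839720) had levels of -3.56, -2.80 and -3.07 in small intestine, all above background, and of -5.37, -5.38 and -5.38 in adenomas, none above background. *Igf2* was at least 3.66-fold lower in adenomas (adjusted p = 0.000379), but its log2 difference was -0.68 in the normalized table of the submitters and -0.96 with normexp background correction, and it was called in neither. In the bound, the dim group is held at the weakest signal that its arrays could call, or at its own signal where that is higher. All *Igf2* levels lie near the floor of the arrays.

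The mRNA-binding proteins split. *Igf2bp1* (chr11:95824526-95824585) was not above background in any small intestine sample, at -7.11, -6.15 and -6.41, and was above it in every adenoma, at -1.65, -2.80 and -3.40. This is at least 3.69-fold (fitted log2 difference 3.94, SE 0.465, adjusted p = 0.000765), and with normexp the difference was 1.04 and not called (adjusted p = 0.0197). *Igf2bp2* (chr16:22059260-22059319), the member kept in adult tissue, went down instead. Its levels were 1.31, 1.0 and 1.24 in small intestine and -0.13, -0.25 and -0.23 in adenomas, a fall of 1.39 on the log2 scale (SE 0.16, adjusted p = 0.000714), and the second probe fell by 1.58. *Igf2bp3* (chr6:49035710-49035769) was not above background in either group, at -7.39 to -4.79 in adenomas.

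Both chromatin proteins were called higher in adenomas, by small steps. *Hmga1* (chr17:27700543-27700602) went from 5.90, 5.43 and 5.13 in small intestine to 6.54, 6.91 and 6.68, a difference of 1.22 (SE 0.233, adjusted p = 0.00512). *Hmga2* (chr10:119798739-119798798) went, by its brightest probe, from -1.82, -3.06 and -3.50 to -0.62, -1.10 and -0.90, a difference of 1.92 (SE 0.418, adjusted p = 0.00851), and its second probe rose by 1.32 (adjusted p = 0.00125). In these probes the groups did not overlap, but the other probes of *Hmga1* were not called, at 0.55 (adjusted p = 0.0416) and -0.28 (adjusted p = 0.513). The *Hmga1* call lay close to the limits and was lost with slide as a block (adjusted p = 0.0118). *Afp* did not pass the test, with 0.94, 0.83 and 0.34 in adenomas and -0.15, 1.54 and 2.24 in small intestine (difference -0.51, adjusted p = 0.478). *Plagl1* (chr10:12850832-12850891), at 0.19, 0.55 and -0.76 in small intestine and 0.10, -0.06 and -0.12 in adenomas, differed by -0.02 (adjusted p = 0.965).

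Cell type markers moved with these differences, and their part in them was not tested. Smooth muscle markers (6 genes) summed to 6.49 to 6.80 in adenomas and 7.06 to 8.97 in small intestine. Fibroblast markers (6 genes) summed to 6.49 to 6.71 and 3.72 to 6.13, with 3 of 6 called higher. Enterocyte markers (7) summed to 8.22 to 8.92 and 10.31 to 11.69, with 4 of 7 called lower, and Paneth cell markers (4) to 7.55 to 8.07 and 8.98 to 10.49. Endothelial markers (4) summed to 3.15 to 3.75 and 3.36 to 3.95, with *Cdh5* (3.93, adjusted p = 0.000137) and *Tek* (3.02, adjusted p = 0.00264) called higher. Of 7 epithelial markers *Vil1*, *Krt20* and *Cldn7* were called lower and *Krt18* higher. In unsorted tissue, fewer cells of a type and less RNA per cell cannot be told apart.

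**Figure D2:**
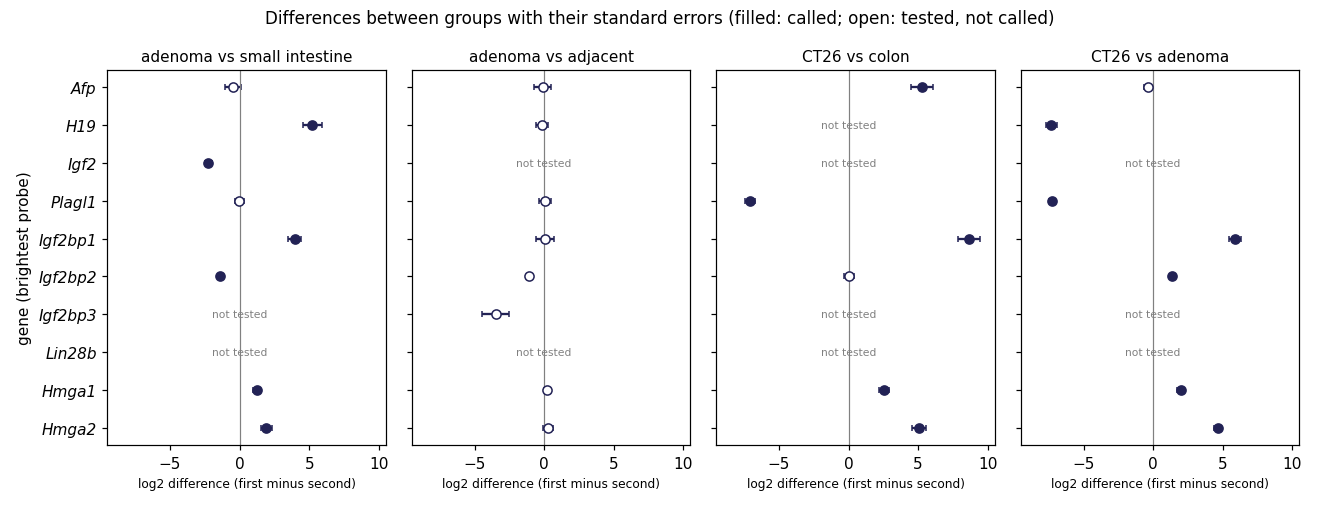
Log2 difference (x axis, first group minus second) of the brightest probe of each gene in 4 comparisons, with standard errors; filled points are called, open points were tested and not called, and genes dim in both groups were not tested. *H19* and *Igf2bp1* stand well to the right in adenomas against small intestine and at 0 against adjacent tissue.

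Adenomas and adjacent tissue, pieces of the same mouse by the study's list, gave 0 calls among the 8 genes tested (limma). There 4.64% of all 22230 genes were called, and 2 of the 8 genes, *Igf2bp2* and *Igf2bp3*, had a probe with an unadjusted p under 0.05, as did 11324 of 29734 probes in all. *H19* differed by -0.17 (SE 0.414, adjusted p = 0.79), *Igf2bp1* by 0.07 (adjusted p = 0.948) and *Hmga1* by 0.18 (adjusted p = 0.489). *Igf2bp2*, at 0.74 and 0.98 in adjacent tissue, was 1.07 lower in adenomas and missed the limit (adjusted p = 0.0116; second probe -1.30, adjusted p = 0.0127). *Igf2bp3* was above background in both adjacent samples, at -4.10 and -1.86, and on no adenoma or small intestine array. It was at least 4.07-fold lower in adenomas than in adjacent tissue, which did not pass (adjusted p = 0.0593).

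The adjacent tissue itself was set against small intestine with 2 arrays against 3, and 0.00923% of 21673 genes were called, so that the limits were reached by almost nothing. Of the 9 genes tested 0 were called (limma), although 6 of them, and 8748 of 28833 probes in all, had an unadjusted p under 0.05. *H19* was 5.39 higher in adjacent tissue (SE 0.829, adjusted p = 0.0473) with both samples above all 3 of small intestine. *Igf2bp1* was at least 3.52-fold higher (adjusted p = 0.0467), at -3.53 and -1.84, and *Igf2bp3* at least 2.87-fold (adjusted p = 0.0542). On the log2 scale *Hmga2* was 1.61 higher (adjusted p = 0.135) and *Igf2* 1.33 lower (adjusted p = 0.0844). When all 14 arrays shared one estimate of the spread, *H19* was called (adjusted p = 0.00773). These differences share the small intestine arrays with those of adenomas.

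**Figure D3:**
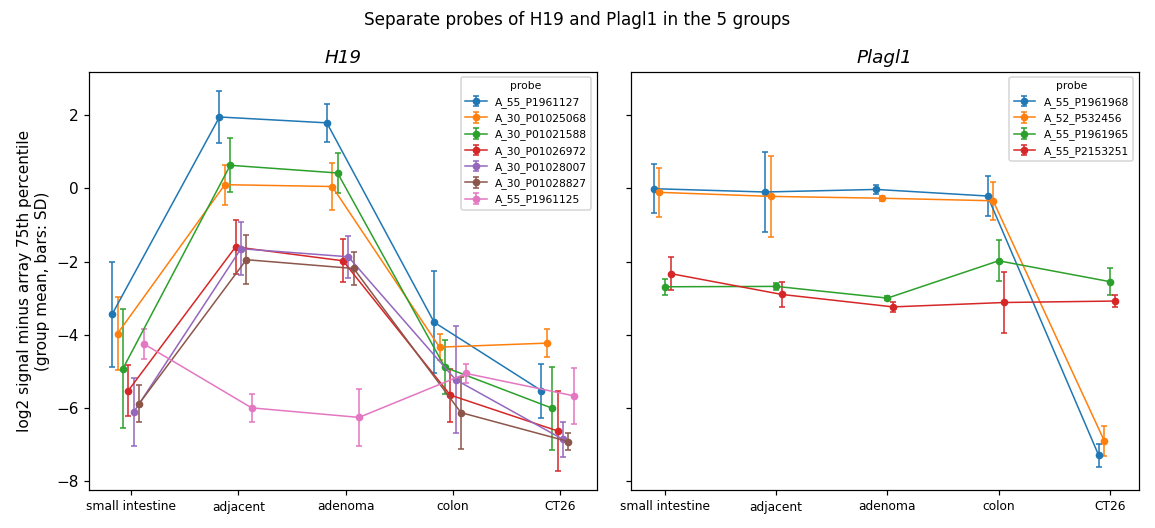
Group means (points) and SD (bars) of the separate probes of *H19* (7) and *Plagl1* (4) on the log2 scale of the arrays. For *H19*, 6 probes peak in adjacent tissue and adenomas and 1 does not; for *Plagl1*, 2 probes fall in CT26 and 2 do not.

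*Afp* had low levels in colon. Its single probe, printed 10 times on each array (chr5:90937781-90937840), read -6.36, -5.41 and -3.02 in colon, where only replicate 3 was above background, against -0.15, 1.54 and 2.24 in small intestine. The difference of -6.14 did not pass on all arrays (SE 0.968, adjusted p = 0.056) (limma). Of the 7 genes tested 0 were called and 4 had a probe with an unadjusted p under 0.05, as did 6414 of 27302 probes in all, and 0.00967% of the 20688 genes tested were called. Without colon replicate 3, the array with the enterocyte signal, *Afp* was called at -7.10 (SE 0.716, adjusted p = 0.00255) and *Igf2* at -2.77 (adjusted p = 0.00298), and no other member was, with 8.04% of all genes then called. *Igf2* read -6.04, -5.79 and -4.53 in colon, not above background. *Hmga2* read -0.90, -0.60 and -2.35 in colon and missed the limit with and without that array (adjusted p = 0.201 and 0.035).

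CT26 cells against colon, the comparison for advanced malignancy, gave 5 calls among 7 genes tested, with 40.4% of all 21770 genes called. *Igf2bp1* was called higher. It read 3.42, 3.39 and 2.93 in CT26 and -6.91, -3.51 and -5.79 in colon, where only replicate 2 was above background, a difference of 8.65 (SE 0.78, adjusted p = 8.82e-05). Within slide 1 it was 6.69 and within slide 2 9.75. *Hmga2* read 4.20, 3.49 and 3.61 and was 5.05 higher (SE 0.494, adjusted p = 0.000134), or 33.2-fold, with 4.45 in the second probe. *Hmga1* read 9.20, 8.28 and 8.56 and was 2.52 higher (SE 0.354, adjusted p = 0.000811). Its other probes were not called, at 2.31 (limma adjusted p = 0.0182) and 0.67 (adjusted p = 0.231). *Afp* read 0.55, 0.50 and -0.10 and was 5.25 higher (SE 0.782, adjusted p = 0.00107). Without colon replicate 3 the differences of these 4 genes by their brightest probes were 8.46, 4.52, 2.72 and 6.20, and all were called. A dimmer *Hmga1* probe was then called too (2.99, limma adjusted p = 0.00128). *Igf2bp2* did not pass (0.00, SE 0.358, adjusted p = 0.994).

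*Plagl1* was the gene called lower in CT26, and its probes disagreed. The brightest probe read 0.26 to -0.82 in colon and -6.93, -7.46 and -7.50 in CT26, where it was not above background, at least 27.2-fold lower (adjusted p = 5.77e-06; fitted log2 difference -7.09, and -6.85 without colon replicate 3). The second (chr10:12851280-12851339) was at least 24.8-fold lower. Their sequences are alike, with 46 identical bases of 48 aligned, so that they are not independent readings. The 2 probes upstream (chr10:12848421-12848480 and chr10:12848851-12848910) were above background on all 14 arrays and did not pass, at -0.57 (adjusted p = 0.249) and 0.05 (adjusted p = 0.939). The start region of *Plagl1*, an imprinted gene, is printed to show its CG dinucleotides. The 250 bases before its transcript start (RefSeq, GRCm38.p6 chr10:13090582-13090831, plus strand) hold 19, in capitals. The median of 32841 start regions of this length is 6, and 80.3% of them hold fewer than *Plagl1*. Start regions of *Igf2bp2* (40), *Hmga1* (34 and 35), *Igf2bp3* (21) and *Igf2* (22 in its richest) hold more, so that the count is not particular to *Plagl1*.
Plagl1 start region: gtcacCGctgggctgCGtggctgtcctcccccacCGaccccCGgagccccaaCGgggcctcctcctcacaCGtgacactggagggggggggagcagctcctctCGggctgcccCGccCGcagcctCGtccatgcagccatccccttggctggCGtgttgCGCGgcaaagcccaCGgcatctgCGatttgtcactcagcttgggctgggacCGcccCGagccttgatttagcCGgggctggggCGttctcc

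CT26 was also set against adenomas, a comparison of a cell line with tissue. Of 7 genes tested 6 were called, with 45.7% of 22891 genes called in all. The brightest *H19* probe was at least 107-fold lower in CT26 (adjusted p = 2.9e-06), whereas the 1 *H19* probe above background on all CT26 and adenoma arrays (chr7:149761756-149761815) was 19.4-fold lower. *Plagl1* was at least 30.9-fold lower by its brightest probe (adjusted p = 1.25e-07). Its 2 upstream probes did not pass, at 0.45 (limma adjusted p = 0.13) and 0.16 (adjusted p = 0.498). *Igf2bp1* was 5.86 higher (SE 0.427, adjusted p = 1.17e-05), *Hmga2* 4.64 higher (SE 0.257, adjusted p = 2.43e-06), *Hmga1* 1.97 higher (SE 0.275, adjusted p = 0.000481) and *Igf2bp2* 1.39 higher (SE 0.197, adjusted p = 0.000515). Smooth muscle markers summed to -0.75 to 0.35 in CT26 and 6.49 to 6.80 in adenomas, and CT26 lacks all cells but the tumor line. *Afp* did not pass, at a difference of -0.39 (SE 0.267, adjusted p = 0.238). Against small intestine, CT26 gave 5 calls among 8 genes, with 52.8% of 22257 genes called. *Igf2bp1* was at least 215-fold higher, *Hmga2* 6.56 and *Hmga1* 3.19 higher on the log2 scale, *Igf2* at least 3.57-fold and *Plagl1* at least 31.3-fold lower. The 2 upstream *Plagl1* probes again did not pass, at 0.14 (limma adjusted p = 0.677) and -0.74 (adjusted p = 0.0533).

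Adenomas against colon, across intestinal segments, gave 1 call among 7 genes tested (*H19*, 5.45 higher, SE 0.704, adjusted p = 0.00792), with 4.04% of 21905 genes called. The difference was 7.10 within slide 1 and 4.53 within slide 2, and no gene was called with slide as a block (*H19* adjusted p = 0.0182) or without any single adenoma or colon replicate 1. Without colon replicate 3, 3 genes were called, with 12.9% of all genes, and *H19* was 5.93 higher (adjusted p = 0.00299). *Afp* was 5.64 higher in adenomas (adjusted p = 0.011), and was called without colon replicate 3 (6.59, adjusted p = 0.000348). *Igf2bp2* was then called lower through its second probe (-1.33, adjusted p = 0.00338).

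*Lin28b* was not above background with either of its probes (chr10:45140412-45140471 and chr10:45096468-45096527) on any of the 14 arrays, at -7.54 to -5.44 for the first, and was tested in no comparison. *Igf2bp3* was above background on 3 arrays in all, namely both adjacent samples and CT26 replicate 1 (-4.07), while the other CT26 arrays read -7.25 and -7.26.

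The genes around these 10 were read from lists of the same pathways. A gene dim in 1 group of a comparison was tested only through the other group, where it was high. Its direction was thus largely set by the filter, and counts and medians of the lists are to be read with this limit. In the IGF axis (16 genes), 8 of 16 tested rose and 2 fell in adenomas against small intestine, with a median difference of 1.36 where all probes had -0.15 and 24.2% of all genes were called. The genes that rose were largely secreted IGF-binding proteins. Among all that rose, *Igfbp1*, *Igfbp7*, *Igfals* and *Pappa* were dim on at least 1 small intestine array and entered only through adenomas. *Igfbp1* was at least 54.9-fold higher (adjusted p = 5.76e-05), at 1.08, 1.19 and 1.56 in adenomas, -0.95 and 1.93 in adjacent tissue and no higher than -5.70 in small intestine. *Igfbp5* rose by 3.23 (adjusted p = 0.000347), and *Igfbp6* fell by 3.84 (adjusted p = 0.00393). In CT26 against colon 1 of 11 rose and 4 fell, with a median of 0.31 beside 0.37 for all probes and 40.4% of all genes called. Without colon replicate 3, which let more genes be tested, 1 of 14 rose and 7 fell (median -1.50 beside 0.33, with 43.2% of all genes called). The genes so added, *Igfbp3*, *Igfals* and *Pappa*, were above background on no CT26 array and entered only through colon. All of them are among those that fell, so the counts and medians with and without that array are not comparable. *Igfbp5* was at least 56.3-fold lower and *Igfbp6* 3.70 higher. The receptor genes *Igf2r*, which clears IGF2, and *Insr* fell by 1.41 and 2.46, whereas *Igf1r* was not called (1.25, adjusted p = 0.0331).

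Among 22 other imprinted genes, 21 were on the array. In adenomas 6 of 15 rose and 3 fell (median 0.61, with 24.2% of all genes called), led by *Slc38a4*, an amino acid transporter (9.31 higher, SE 1.03, adjusted p = 0.000604), *Asb4* (7.52, adjusted p = 0.000467) and *Phlda2*, a brake on placental growth (4.6, adjusted p = 0.00121). Of the 6, all but *Cdkn1c* were dim on at least 1 small intestine array and entered only through adenomas. Of the 3 that fell, *Dlk1* and *Nnat* entered only through small intestine. *Slc38a4* read 3.58, 3.92 and 4.0 in adenomas and -2.33 and -6.81 in adjacent tissue, a difference that just missed the limit (8.40, adjusted p = 0.0111). In CT26 against colon 7 of 12 fell and 3 rose (median -2.94, with 40.4% of all genes called). Of the 7, all but *Ndn* were above background on no CT26 array and entered only through colon. *Slc38a4*, which rose, entered only through CT26. Without colon replicate 3, 12 of 19 fell and 3 rose (median -3.54, with 43.2% of all genes called). The falls so added (*Peg3*, *Mest*, *Phlda2*, *Asb4* and *Usp29*) were likewise above background on no CT26 array, so that they followed from the filter. *Cdkn1c*, a cell cycle inhibitor from the imprinted region next to *Igf2*, was at least 64.8-fold lower (adjusted p = 1.49e-06), and *Meg3* and *Snrpn* were at least 29.4-fold and 34.9-fold lower.

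**Figure D4:**
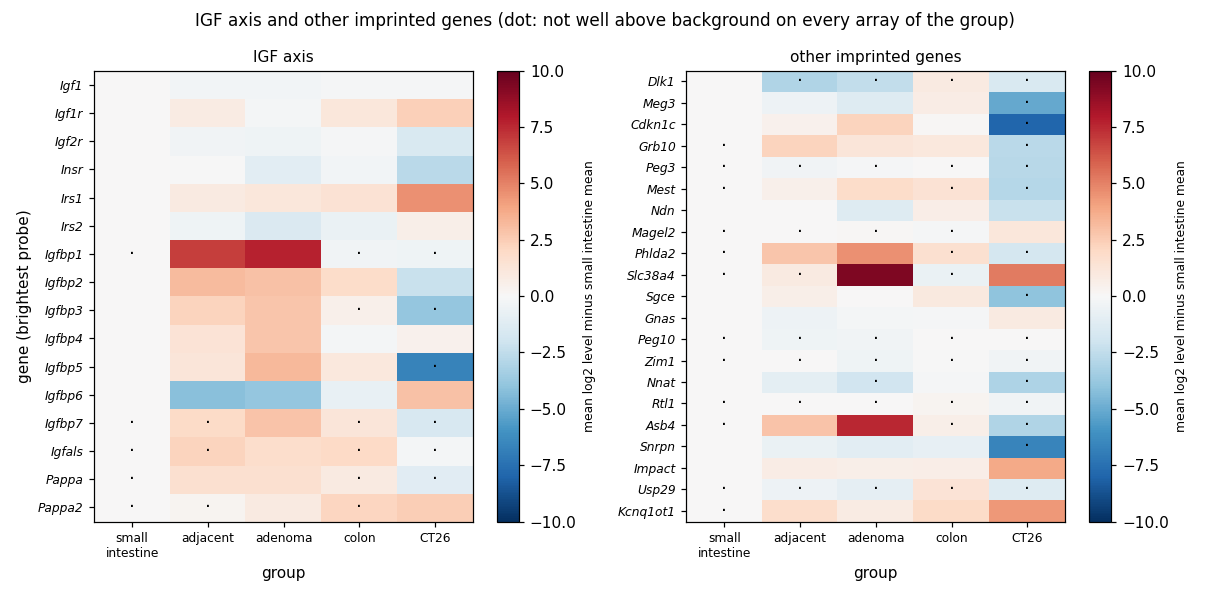
Mean level of each gene of the IGF axis (16) and of the other imprinted genes (21 on the array) in each group, as the log2 difference from its small intestine mean (color scale); dots mark groups with at least 1 array on which the probe was near background. *Igfbp1* is raised in adjacent tissue and adenomas, *Slc38a4* and *Asb4* in adenomas, and *Cdkn1c*, *Igfbp5* and *Snrpn* are lower in CT26.

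The let-7 and Lin28 axis (9 genes) and the lists after it are to be read beside the share of all genes called. That share was 24.2% in adenomas against small intestine and 40.4% in CT26 against colon, or 43.2% without colon replicate 3. In adenomas 1 of 9 was called, *Zcchc6*, a uridylyl transferase (-1.26, adjusted p = 0.00218), with a median of -0.03. In CT26 against colon 2 of 9 rose, *Trim71* (1.99, adjusted p = 0.00445) and *Drosha*, the nuclear microRNA processing enzyme (1.37, adjusted p = 0.0035), as they did without colon replicate 3. Of the 11 regulators of *Afp*, *H19* and *Igf2*, 2 rose and 3 fell among 9 tested in adenomas (median 0.12), *Zfhx3*, a repressor of *Afp*, being 2.0 higher (adjusted p = 0.00113). In CT26 against colon 3 rose and 3 fell among 10 (median 0.12), which became 1 and 5 of 11 without colon replicate 3 (median -0.66). The gene then added, *Ctcfl*, was above background on no CT26 array. *Foxa2*, a liver and gut factor, was at least 192-fold lower. Of 7 other oncofetal genes, 2 rose (*Sox11*, at least 2.47-fold, and *Ptn*, 1.64) and 1 fell (*Spink3*, by 3.75) in adenomas, with a median of -0.03. In CT26 0 of 6 rose and 3 fell (*Spink3*, *Ptn* and *Gpc3*, limma), with a median of -3.12, and without colon replicate 3 1 rose (*Ccnd1*) and 3 fell. Between colon and small intestine, and between adjacent tissue and small intestine, 0 genes of these lists were called (limma), with 0.00967% and 0.00923% of all genes called. Without colon replicate 3 the former gave 4 calls (*Igfals*, *Pappa2*, *Kcnq1ot1* and *Foxa2*), with 8.04% of all genes then called.

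Hepatocyte markers were read beside *Afp*, and their part in its level was not tested. Of 6, 5 were above background on every adenoma array and 3 on every small intestine array. *Alb* read -0.44, 0.49 and 2.12 in adenomas and -3.67 to -4.91 in small intestine (5.07 higher, adjusted p = 0.001), and *Ahsg* was at least 4.69-fold higher, whereas *Serpina1a* fell by 3.41 (adjusted p = 0.00374) and *Fgb* was above background in neither. Mean levels of *Ttr* were 1.75 in adenomas and -1.14 in small intestine, and those of *Apoa2* were 1.54 and 1.71. The summed level of the 6 was 3.1 to 3.45 in adenomas and 3.33 to 4.79 in small intestine. In CT26, where *Afp* was above background on all arrays, 1 of the 6 was, and *Alb* was on none.

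The step from small intestine to adenoma was set against the step from colon to CT26 in one model over 12 arrays. Of 8 genes tested 5 differed between the steps, with 34.3% of 23491 genes called. Without colon replicate 3 all 8 were called, *Igf2*, *Igf2bp2* and *Hmga1* being added, with 39.7% of all genes then called. *Hmga1* was added through a dimmer probe (-2.44, limma adjusted p = 0.00208), while its brightest missed the limit (-1.50, adjusted p = 0.0121). *Igf2* (-1.29, adjusted p = 0.00875) was above background on no adenoma, colon or CT26 array. The step to adenoma exceeded that to CT26 by 7.09 for *H19* (SE 1.1, adjusted p = 0.000374) and by 7.07 for *Plagl1* (SE 0.518, adjusted p = 1.23e-06). It was below it by 5.75 for *Afp* (difference -5.75, SE 1.09, adjusted p = 0.0014), by 4.71 for *Igf2bp1* (-4.71, SE 1.02, adjusted p = 0.00324) and by 3.13 for *Hmga2* (-3.13, SE 0.704, adjusted p = 0.00402). Without colon replicate 3 these differences were 6.61, 6.83, -6.71, -4.52 and -2.60 in the same order. For *Plagl1*, an upstream probe then passed in the other direction (-1.42, limma adjusted p = 0.00794), and the other upstream probe did not pass (0.35, adjusted p = 0.528). The brightest *H19* and *Plagl1* probes were above background on 0 of 3 CT26 arrays, so that the size of their CT26 step was not measured, and the *H19* probe that was above background there gave 3.91 (adjusted p = 0.000791). The sizes for *Igf2bp1* and *Afp* rest in part on dim levels too. *Igf2bp1* was above background on 0 of 3 small intestine and 1 of 3 colon arrays, and *Afp* on 1 of 3 colon arrays. Over all probes the median was -0.45, and tissue and cell line cannot be told apart from stage. The steps also start from different intestinal segments. Mean *Afp* was 1.21 in small intestine and -4.93 in colon, against 0.70 in adenomas and 0.32 in CT26, so that its difference lies in the starting tissues.

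The genes whose levels ran most like each of these over the 14 arrays, among 16092 named genes above background in at least 1 whole group, are given as a description, since all share the same arrays and groups. For *H19* they were *Prom2*, *Sprr2f* and *Pnoc* (Pearson r 0.972, 0.971 and 0.968), and for *Igf2* *Aqp3*, *Scp2* and *Aldh3a2* (0.977, 0.975 and 0.974). For *Igf2bp1* they were *Csprs*, *Ppic* and *Esm1* (0.986, 0.977 and 0.977), and for *Hmga2* *Gtf2ird2*, *Tubgcp3* and *0610007P08Rik* (0.996, 0.992 and 0.991). *Hmga1* ran with *Brp16*, *Heatr1* and *Rrp15* (0.994, 0.991 and 0.99) and *Plagl1* with *Spink4*, *Cib2* and *Gpr126* (0.992, 0.992 and 0.99). *Afp* was nearest *Pld2*, *Arl5a* and *Gata4* (0.921, 0.912 and 0.91), *Igf2bp2* nearest *Stk10*, *Hps5* and *Gbp11* (0.939, 0.937 and 0.914), and *Igf2bp3* nearest *Otof*, *4931407G18Rik* and *Dsc3* (0.897, 0.854 and 0.79).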

How the data were processed

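RNA was hybridized to 1 array per sample. The deposited scanner files (Feature Extraction 10.7.3.1) hold an intensity per spot after subtraction of background, and a deposited table holds normalized log2 values from the authors. The table's fold changes and p-values for 7 pairs of groups hold the authors' comparisons and were not used, nor were 28 of its per-sample columns. After removal of control and outlier spots, log2 intensities were centered on the array's 75th percentile and averaged per probe. Pairs of groups were compared with limma 3.58.1 in R 4.3.3 on their own arrays, over probes that all arrays of 1 group or more detected above background, and p-values were adjusted by Benjamini-Hochberg over all of them. Fits were tested on simulated data. Each gene was read from its brightest probe unless another is named. All 10 genes were named, with genes of each list called in a comparison described or among the 3 most changed of those called, and the 3 genes most correlated with each member. Members and lists were chosen with earlier results of these data known. Positions of probes are in mm9 as in the files; the number of arrays limits the precision. Alternatives were the authors' table, normexp (offset 50), quantile normalization, dim probes kept, all 5 groups in one fit, a block for slide or for replicate number, an adjusted p of 0.05 with no fold minimum, the brightest probe alone and the omission of each array; the lists without colon replicate 3 were added after seeing the data. One gene of the lists is not reported here by name.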

Additional observations from a re-analysis of the deposited data

Results flagged for a closer look

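The difference between the step from small intestine to adenoma and the step from colon to CT26 was tested in one model (limma, 12 arrays) and passed for 5 of the 10 genes. It was 7.09 on the log2 scale for *H19*, 7.07 for *Plagl1*, -5.75 for *Afp*, -4.71 for *Igf2bp1* and -3.13 for *Hmga2*. For *H19* the step to adenoma was 5.23 while the means were -3.66 in colon and -5.53 in CT26, and for *Plagl1* the step to adenoma was -0.02 and the step to CT26 was -7.09. For *Afp* the steps were -0.51 and 5.25, from means of 1.21 in small intestine and -4.93 in colon. For *Igf2bp1* they were 3.94 and 8.65, and for *Hmga2* 1.92 and 5.05. The sizes for *H19* and *Plagl1* rest on CT26 levels below background. Those for *Igf2bp1* and *Afp* rest in part on dim levels as well. *Igf2bp1* was above background on 0 of 3 small intestine and 1 of 3 colon arrays, and *Afp* on 1 of 3 colon arrays. For *Plagl1* the 2 upstream probes, which did not pass in CT26 against colon, are not part of that value. Groups of 2 or 3 arrays were too small for a test of single outlying samples.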

How the results depend on the processing

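No difference called in any setting changed sign, while some small ones that were never called did, such as *H19* between adenomas and adjacent tissue (-0.24 to 0.06). Each difference of a brightest probe that was called in at least 1 setting was counted once per setting. With 1 array left out, 256 of these readings kept their side of the limits, 17 lost a call and 6 gained one. Under the other alternatives the numbers of readings were 280, 17 and 15. Between adenomas and small intestine 4 to 7 genes were called under every alternative, *Hmga1* being lost without the filter on dim probes and with slide or replicate number as a block (adjusted p = 0.0173, 0.0118 and 0.0148), *Igf2* in the authors' table and with normexp (-0.68 and -0.96), and *Igf2bp1* with normexp (1.04). With an adjusted p of 0.05 and no fold minimum, 1 gene was called for adenomas against adjacent tissue, 2 for adjacent tissue against small intestine and 3 for adenomas against colon. The fit of all 5 groups called 1 between adjacent tissue and small intestine (*H19*), 2 between colon and small intestine (*Afp*, *Igf2*) and 3 between adenomas and colon. For adenomas against colon, the authors' table and normexp called 2, and slide as a block called 0. With 1 array left out, counts ran from 5 to 6 between adenomas and small intestine, 0 to 0 in both comparisons with adjacent tissue, 0 to 2 between colon and small intestine, 5 to 6 between CT26 and colon, 0 to 3 between adenomas and colon, 6 to 6 between CT26 and adenomas, 5 to 6 between CT26 and small intestine, and 5 to 8 for the difference of steps (8 without colon replicate 3). Whether samples are paired cannot be settled from so few arrays. The deviations of arrays with the same replicate number correlated from -0.322 to 0.291. The adjacent samples carry other numbers in their titles than their replicate numbers, and pairs by title were not examined. With replicate number as a block, 5 genes were called between adenomas and small intestine and 1 between adenomas and colon. That block gave 6 calls between CT26 and adenomas and 5 in the other comparisons with calls. The median of all probes tested lay at -0.15 between adenomas and small intestine, 0.37 between CT26 and colon or adenomas and 0.21 between CT26 and small intestine, and changes are to be read relative to it. The share of all genes called ran from 12.1% to 55.9% over the alternatives between adenomas and small intestine and from 0.256% to 14% between adenomas and colon. The cause of these shifts was not tested. Signal over background limits *Igf2*, *Igf2bp3* and *Lin28b*.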
